A study of Rattus norvegicus with 20 samples.

Results

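Mammary cancers of obesity-prone (OP) rats were compared with mammary cancers of lean-control (LC) rats, which makes 9 arrays (6 OP and 3 LC) of the 20 in the series. The arrays were taken by their sample titles, and every probe that was not a control spot was used. All animals were female Sprague-Dawley (Jcl:SD) rats that received 4 Gy of whole-body gamma rays from a caesium source at 0.5 Gy/min when 7 weeks old, and they were then watched for palpable mammary cancer for 30 weeks. OP rats ate a diet with 45% of its energy as fat and were classed as prone by their body weight at the time of irradiation. LC rats ate a standard diet with 10% of its energy as fat. Animals classed as obesity-resistant (OR) on the fatty diet gave 3 cancers, which entered the model to estimate the spread.

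Body fat acts on the mammary gland through hormones and adipokines, such as leptin and adiponectin, through oestrogen made in adipose tissue, through insulin and insulin-like growth factors, and through inflammation of the fat pad. Excess weight is a known risk factor for breast cancer after menopause. Radiation of young female rats of this strain is a classical way to induce mammary carcinomas.

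Diet and body weight both differ between OP and LC rats, so a difference between their cancers cannot be assigned to either. No unirradiated animals were in these groups. The cancers were adenocarcinomas that the submitters selected for even histology, without necrosis or heavy infiltration, and the labels do not say whether each came from its own rat; the p-values therefore describe only how far these samples scatter, which may in part be technical. In bulk tissue, fewer cells of a type and less RNA per cell cannot be told apart.

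Total RNA was labelled with a single dye and hybridised to whole-genome rat arrays, so a value is the brightness of a probe, here as a normalized log2 level, on which a difference of 1 is 2-fold. The markers followed the tissue label: the mean level of 15 luminal epithelial genes was 11.44 to 12.26 in the OP cancers and 12.05 to 12.31 in the LC cancers, against 9.37 to 11.10 in normal mammary tissue, and the mean of 16 fat cell genes was 7.89 to 8.53 in these 9 cancers against 11.81 to 12.79 in normal tissue. Between 61.2% and 79.3% of probes were well above background, with 65.6% ± 7.09 in OP (SD, n = 6) and 68.0% ± 4.08 in LC (SD, n = 3; exact two-sided permutation p = 0.619, with 0.0119 the smallest that 84 splits allow). Without OP replicate 2, which had the highest share, the difference was -5.19 percentage points (exact permutation p = 0.0357). OP replicate 6 stood apart on the first principal component of the 12 cancers (23.6% of the variance). It was at 63.7, where the other OP cancers lay between -26.6 and -2.21 and OR replicates 2 and 3 at 23.0 and 35.2. OP replicate 1 stood apart on the second component (20.5%), at 62.1, with the other cancers between -31.5 and 35.8. Mean correlations with the other cancers were 0.962 for OP replicate 6 and 0.964 for OP replicate 1. Results that rest on OP replicate 6 are given with and without it. Slide nearly followed group. OP replicates 3 to 6 were on slide 4 and OP replicate 2 on slide 2, both without an LC cancer. LC replicates 2 and 3 were on slide 5 with OR replicates 2 and 3. Only OP replicate 1 and LC replicate 1 shared a slide, so slide and group cannot be told apart for the others. The number of arrays limits the precision: at the median standard error of 0.15, a 95% interval reaches 0.32 to either side.

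No gene passed the test across all 9 cancers. Of 25023 genes tested with limma, 0 (0%) had a Benjamini-Hochberg adjusted p under 0.05, and the smallest adjusted p was 0.197. At an unadjusted p under 0.05, 1193 genes were higher in OP cancers (4.77%) and 886 were lower (3.54%), 8.31% in all. A difference of at least 2-fold was measured for 75 genes in the higher direction (0.3%) and 86 in the lower (0.344%). The differences were centred near 0, with a median of -0.01 and quartiles of -0.13 and 0.12. Slide as a fixed block is left out of these counts, because the contrast then rests on OP replicate 1 and LC replicate 1 alone. Other fits gave 0 to 3 calls, with the exception of 2: estimated array weights gave 322 calls, and leaving out OP replicate 6 gave 185.

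The genes described next had the smallest p among those at least 2-fold apart, and none passed the adjusted threshold. Fst encodes follistatin, which binds and blocks activins. Its level was 9.33, 10.49 and 9.70 in the LC cancers, and in the OP cancers the lowest was 10.67, the median 11.22 and the highest 11.61. Every OP cancer lay above every LC cancer, by 1.33 ± 0.37 on average (SE; limma adjusted p = 0.333), which is 2.51-fold, and the other Fst probe was higher by 1.16. The OR cancers had 10.28, 10.21 and 11.88. Across all genes, 611 (2.44%) had every OP cancer above every LC cancer and 485 (1.94%) had every one below.

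Gmfg, a regulator of the actin cytoskeleton found mainly in blood cells, stood at 11.49, 11.06 and 11.62 in LC and from 11.98 through a median of 12.35 to 13.74 in OP. The groups did not overlap, and the highest value was that of OP replicate 6; the difference was 1.18 ± 0.37 (SE, adjusted p = 0.409) and 0.94 without that cancer. Pa2g4, which encodes the ErbB3-binding protein Ebp1, was between 10.22 and 10.48 in LC and between 10.69 and 12.45 in OP. OP replicates 1 and 2 were its highest, and the difference of 1.13 ± 0.37 (SE, adjusted p = 0.438) was 2.14 among cancers scanned on the same day as these and 0.62 among the others. Gda, the guanine deaminase of purine breakdown, was higher by 1.02 ± 0.38 (SE, adjusted p = 0.506), again with no overlap.

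The rest of the higher group overlapped between OP and LC. Elovl6, a fatty acid elongase, was higher by 1.08, and the acute-phase inhibitor Serpina3n by 1.48. The interleukin 1 receptor antagonist Il1rn differed by 1.47, the adhesion molecule gene Ceacam4 was 2.83-fold higher, and the muscle filament gene Des and the opioid precursor Penk were higher by 1.96 and 1.47. A second, dimmer probe was higher by 0.70 for Elovl6, 0.44 for Il1rn and 0.94 for Ceacam4, each under 2-fold. For Penk the difference was 0.69 without LC replicate 1 and 2.35 without LC replicate 3. The adjusted p-values of these overlapping genes lay between 0.577 and 0.638. Des showed the widest scatter of these, with 13.34, 13.77, 14.29 and 12.04 in OP replicates 2, 3, 4 and 6 and 9.25 to 10.13 in the other OP cancers, against 9.72 to 10.95 in LC. Ceacam4 was 0.84 lower, not higher, on the second scan day, and both Ceacam4 and Des were lower in OP in the single OP and LC pair that shared a slide.

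Among the lower genes, Gal encodes galanin, a neuropeptide that also acts in the mammary gland. It was 9.54, 9.67 and 8.12 in LC and from 7.09 through a median of 7.40 to 8.39 in OP. LC replicate 3 lay within the OP range, and the other LC cancers were above it. The difference was -1.54 ± 0.37 (SE, adjusted p = 0.237), a 2.91-fold lower level. The 3 OR cancers, on the same diet as OP, had 7.40, 6.96 and 7.54, inside the OP range.

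Rhbdf1 encodes the inactive rhomboid iRhom1, a partner of the protease that releases EGF receptor ligands. Its LC levels of 10.61, 11.32 and 10.59 were all above the OP levels, which ran from 9.28 (median 9.60) to 10.26, a difference of -1.17 ± 0.29 (SE, adjusted p = 0.248). The OR cancers were split, at 10.75, 10.97 and 9.70. Gdf10, a member of the BMP family, was lower by 1.63 ± 0.47 (SE, adjusted p = 0.357), with 10.85, 11.80 and 12.58 in LC and 9.25 (median 10.17) to 10.98 in OP. OP replicate 4 exceeded LC replicate 1, so the groups met at that edge. A2m, the protease trap alpha-2-macroglobulin, had nearly equal LC values of 11.58, 11.53 and 11.46 and OP values of 9.66 (median 10.43) to 11.14. No OP cancer reached the LC range, and the difference was -1.11 ± 0.35 (SE, adjusted p = 0.412).

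Duox1, an oxidase that makes hydrogen peroxide at the epithelial surface, was lower by 1.14, Mup4l3 was 2.15-fold lower, and the inducible heat shock gene Hspa1a was lower by 1.18. Hspa1a was at 14.19 in LC replicate 3 against 12.25 and 11.83 in the others, and without that cancer the difference was -0.46. The interferon-induced genes Ifi27 and Ly6e and the class I histocompatibility gene RT1-CE3 completed the group, lower by 1.03, 1.09 and 1.16. Ly6e had a second probe that was lower by 1.14, and RT1-CE3 belongs to a family of near-identical genes that probes may not separate.

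By the size of the difference among genes whose groups did not overlap, 19 genes were at least 2-fold higher (0.0759%) and 7 at least 2-fold lower (0.028%). Gys2, the liver form of glycogen synthase, was not well above background in any LC cancer and was measured in 3 of 6 OP cancers, at least 3.09-fold higher on average. That mean came from OP replicates 1 and 3, at 12.78 and 10.04, since the other OP cancers lay between 6.47 and 6.65. Ly6g6c was higher by 1.08, and Ubl7 and the dipeptidase gene Pepd were lower by 0.86 and 0.80. Among transcripts with no symbol in the gene table, BM986233 and ENSRNOT00000060838 were each higher by 1.54, while BI395793 was lower by 2.60 and Y13890 by 1.68.

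Interferon-induced genes were lower in OP cancers as a list, by a median of 0.67 against -0.01 over all genes. All 23 tested members had a lower mean in OP, where 51.4% of all genes did. At an unadjusted p under 0.05, 4 were lower (3.54% of all genes), and 6 were at least 2-fold lower (0.344% of all genes). None passed the adjusted threshold, and the members move together, so their number is not a number of independent observations. The mean level of the list was 11.49, 10.80 and 10.05 in LC and 9.45, 9.38, 10.53, 10.72, 10.08 and 9.93 in OP replicates 1 to 6. LC replicate 1 was the highest of the 9 cancers and LC replicate 3 lay within the OP range.

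Interferons switch on these genes through the factor complex ISGF3, which binds a promoter element built around the letters GAAA, any 2 bases and GAAA again. The 250 bases before the start were searched for these letters on both strands in RefSeq promoters (build GRCr8). Of the 23 members, 19 had a promoter in the table and 11 of these (57.9%) held the letters, against 3.41% of 33469 promoters and 3.07% of the 5759 that belonged to tested genes with a symbol. A match is a stretch of letters and not a measured binding site. The list was chosen as interferon-induced genes, so this share describes the list and not the difference between OP and LC cancers. The promoters of Ifi27 and Ifi44l, which had the smallest p of the list, and of Irf7, the factor that amplifies interferon production, show where such letters lie; matches are in capitals, and TTTC, 2 bases and TTTC are the same element on the other strand.
Ifi27 (chr6:128355062-128355311, plus strand): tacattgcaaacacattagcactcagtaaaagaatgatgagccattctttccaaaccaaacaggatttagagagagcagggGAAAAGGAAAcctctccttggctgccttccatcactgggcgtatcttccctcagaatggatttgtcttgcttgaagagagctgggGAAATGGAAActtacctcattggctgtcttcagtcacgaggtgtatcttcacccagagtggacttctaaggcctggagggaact
Ifi44l (chr2:243328473-243328722, plus strand): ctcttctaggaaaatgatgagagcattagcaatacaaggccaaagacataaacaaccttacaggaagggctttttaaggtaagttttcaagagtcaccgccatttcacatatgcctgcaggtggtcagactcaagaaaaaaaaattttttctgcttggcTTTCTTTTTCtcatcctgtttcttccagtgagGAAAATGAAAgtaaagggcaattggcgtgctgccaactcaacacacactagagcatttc
Irf7 (chr1:205800024-205800273, minus strand): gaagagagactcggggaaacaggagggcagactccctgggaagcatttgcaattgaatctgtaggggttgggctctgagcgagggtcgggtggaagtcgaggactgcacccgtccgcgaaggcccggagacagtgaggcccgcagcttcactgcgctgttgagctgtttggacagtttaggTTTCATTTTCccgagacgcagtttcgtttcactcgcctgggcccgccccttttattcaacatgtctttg

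Ifi27, whose promoter above holds 2 matches, was at 15.48, 14.90 and 14.59 in LC and at 13.26 (median 13.94) to 14.54 in OP. Every OP cancer was below every LC cancer, by 1.03 ± 0.33 (SE, adjusted p = 0.42). Ifi44l differed by -0.63 ± 0.23 (SE, adjusted p = 0.493), and Stat2, a part of ISGF3 without a match in its window, by -0.71. Mx2, a dynamin-like antiviral protein, was at 10.35, 9.04 and 7.50 in LC and at 6.75 to 8.77 in OP, lower by 1.43 ± 0.62 (SE, adjusted p = 0.577). The members other than Ifi27 overlapped between groups, with LC replicate 3 low in each of Ifi44l, Stat2 and Mx2.

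The size of this difference depended on the scan day. OP replicates 3 to 6 and LC replicates 2 and 3 were scanned on 1 day, and there the list median was -0.11, with 16 of 23 members lower (51.9% of all genes) and 0 at an unadjusted p under 0.05. On the other day, with OP replicates 1 and 2 and only LC replicate 1, the median was -1.89 and all 23 members were lower (46.7% of all genes). Without LC replicate 1 the median was -0.37, with 22 members lower and 0 at an unadjusted p under 0.05; without LC replicate 3 it was -1.04. The part of the scan day and of LC replicate 1 in the result cannot be told apart, because that day held a single LC cancer. On the day with LC replicates 2 and 3, the OP and LC cancers lay on different slides, so slide and group cannot be told apart there. The array of LC replicate 1 also stood apart in its dim spots: the 5th percentile of its background-corrected log2 signal, before arrays were made alike, was 7.86, against 5.94 to 6.09 on the other 11 cancer arrays. With the scanner's processed signal scaled to the 75th percentile the interferon median was -0.89, and in the authors' deposited table it was -0.91. The part of this array in the interferon and hypoxia differences was not tested.

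**Figure D1:**
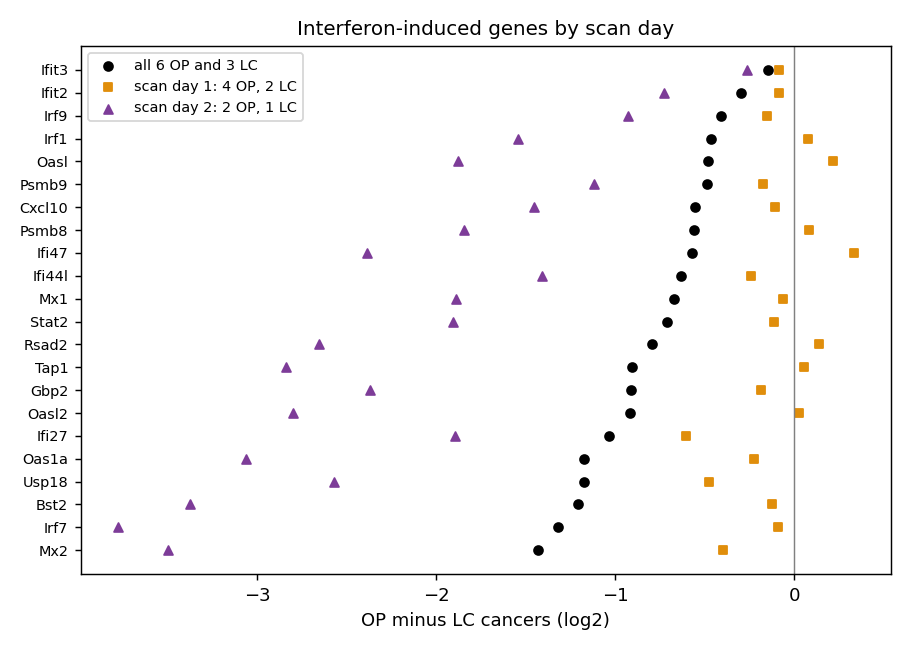
Difference of OP minus LC cancers (log2, x axis) for 22 of the 23 tested interferon-induced genes, over all cancers (circles) and within each scan day (squares and triangles). All circles are below 0, whereas the squares of the day with 4 OP and 2 LC cancers lie close to 0 and the triangles of the day with 2 OP and 1 LC cancer reach below -3.

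EGF receptors and their ligands were lower in 9 of 10 tested members (51.4% of all genes), with a median of -0.18, and 2 members were lower at an unadjusted p under 0.05 (3.54% of all genes). The median was -0.28 without LC replicate 1. Tgfa, an EGF receptor ligand, was 10.81, 10.61 and 10.94 in LC and 9.79 (median 10.36) to 10.39 in OP, a difference of -0.52 ± 0.14 (SE, adjusted p = 0.288). Erbb2, the receptor known as HER2 in humans, was 10.23, 10.22 and 10.40 in LC and 8.97 (median 9.80) to 10.08 in OP, lower by 0.59 ± 0.22 (SE, adjusted p = 0.498). In both genes every OP cancer was below every LC cancer (1.94% of all genes), the OP values close together for Tgfa apart from a low replicate 1. The list median kept its sign in each other scaling, filter, fit and omission tried.

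Several epithelial adhesion genes were also lower in OP cancers as values. Cdh1, which encodes E-cadherin, was 14.43, 14.57 and 14.75 in LC and 13.89 to 14.33 in OP, without overlap, a difference of -0.48 ± 0.11 (SE, adjusted p = 0.219). Epcam was lower by 0.52 and the catenin Ctnna1 by 0.37, a value that was 0.19 without LC replicate 1. Of the 15 luminal epithelial genes 12 were lower (51.4% of all genes), with a median of -0.12 that was -0.03 without OP replicate 6 and -0.04 without LC replicate 3. Of 15 tested claudin and junction genes 11 were lower, 2 of them at an unadjusted p under 0.05 (3.54% of all genes).

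ER stress genes, the chaperones of the secretory pathway and their regulators, were lower in 14 of 17 members (51.4% of all genes), by a median of 0.20, and 2 were lower at an unadjusted p under 0.05 (3.54% of all genes). Within the second scan day 9 of 17 were lower, with a median of -0.02, and within the first 14 of 17, with a median of -0.15. Pdia4, a disulfide isomerase, was 10.36, 10.22 and 10.50 in LC and 9.58 to 10.08 in OP, lower by 0.50 ± 0.12 (SE, adjusted p = 0.259). The groups did not overlap. Dnajb11 was lower by 0.30, with LC replicate 2 inside the OP range.

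Hypoxia and glycolysis genes were lower in 22 of 26 members (51.4% of all genes), by a median of 0.26. Only Pgam1 had an unadjusted p under 0.05, where 3.54% of all genes were lower at that threshold. Pgam1, phosphoglycerate mutase, was lower by 0.41 and the aldolase gene Aldoa by 0.76, both with overlap. The list median was -0.02 on the first scan day, -0.83 on the second and -0.08 without LC replicate 1, with 16, 25 and 16 of 26 members lower, so its size too moved with that cancer.

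Proteasome subunits had 6 of 21 members higher at an unadjusted p under 0.05 (4.77% of all genes) and 0 lower, although only 13 were higher at all (48.6% of all genes) and the median was 0.15. Without LC replicate 2 the median was 0.06, and without OP replicate 1 it was 0.08. Psmb3 was 13.72, 13.44 and 13.75 in LC and 13.98 (median 14.19) to 14.56 in OP, a difference of 0.61 ± 0.14 (SE, adjusted p = 0.217). Psmb2 and Psma7 were higher by 0.38 and 0.45, also without overlap.

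Ribosomal proteins were higher in 23 of 31 members (48.6% of all genes) with a median of 0.14, and at an unadjusted p under 0.05 5 were higher (4.77% of all genes) and 1 lower (3.54%). The median was 0.03 within the first scan day, 0.35 within the second, 0.07 without LC replicate 3, 0.22 without LC replicate 2 and 0.23 without OP replicate 6. Rpl11, which also binds the p53 regulator Mdm2, was 16.31, 16.40 and 16.40 in LC and 16.49 to 17.17 in OP, higher by 0.51 ± 0.13 (SE, adjusted p = 0.261). Rps20 and Rpl19 were higher by 0.47 and 0.62, and none of these overlapped. In the respiratory chain, Cox7a2 was 13.35, 13.36 and 13.51 in LC and 13.76 to 14.03 in OP, higher by 0.49 ± 0.09 (SE, adjusted p = 0.197), whereas Sdha was lower by 0.27 (but higher by 0.05 when arrays were scaled to the 75th percentile after normexp). The 18 members had a median of 0.02.

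Genes that respond to or carry signals of obesity were mixed. Leptin (Lep) was not well above background in any of the 9 cancers and was not tested, and the aromatase gene Cyp19a1 was not analysed here. Adiponectin (Adipoq) was 6.72 to 6.94 in LC and 6.74 to 7.18 in OP, with wide overlap. Its receptor Adipor2 was 11.39, 11.47 and 11.45 in LC and 11.58 (median 12.06) to 12.43 in OP, without overlap, a difference of 0.59 ± 0.15 (SE, adjusted p = 0.286). The leptin receptor Lepr was well above background in 1 OP cancer and all 3 LC cancers and was lower by 0.25. Fat cell genes had a median of 0.07. Car3 and Fabp4, which had their smallest p, were higher by 0.51 and 0.73, with overlap (limma adjusted p = 0.525 and 0.628). Both were dim, with Car3 well above background in 5 OP and 1 LC cancers and Fabp4 in 6 OP and 2 LC cancers.

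The hormone receptors overlapped widely. Pgr, the progesterone receptor, was 8.53, 8.22 and 9.04 in LC and 7.14 (median 8.09) to 9.05 in OP. Esr1, the oestrogen receptor, differed by -0.13 and was well above background in 3 OP and 2 LC cancers. Igf1 ranged from 12.51 to 14.25 in LC and from 11.83 to 14.51 in OP. Csn2, the milk protein beta-casein, ranged from 8.20 to 17.06 in LC and from 8.33 to 16.24 in OP, so that either group held cancers with and without it. For Igf1 and Csn2 the sign of the difference turned with the cancer left out.

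In the RAS and MAPK chain 20 genes were tested, with a median of 0.01. At an unadjusted p under 0.05, 2 were higher (4.77% of all genes) and 1 lower (3.54% of all genes). Ptpn11 encodes SHP2, a phosphatase that passes receptor signals to RAS. It was 12.40, 12.73 and 12.64 in LC and 13 (median 13.28) to 13.50 in OP, without overlap, by 0.68 ± 0.11 (SE, adjusted p = 0.197). Mras, a RAS relative that forms a complex with Shoc2, was higher by 0.79 ± 0.18 (SE, adjusted p = 0.208), and Map2k1 was lower by 0.35. Of the TGF-beta and BMP genes, Smad2 was lower by 0.26 beside Fst and Gdf10 above. Among amino acid transporters, Slc38a4 was 7.58, 7.57 and 7.72 in LC and 8.19 to 8.94 in OP, higher by 0.86 ± 0.16 (SE, adjusted p = 0.197), and Slc7a5 was higher by 0.67.

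OP replicate 6 stood apart in markers of several other cell types. The mean of 7 neutrophil genes was 11.97 in that cancer and 8.05 to 8.96 in the other OP cancers, against 7.97 to 8.24 in LC. S100a8 and S100a9, the calprotectin subunits, were at 14.18 and 14.26 there and at 6.64 to 8.54 in the other OP cancers. The list median of 0.78 was 0.43 without it. Skeletal muscle genes averaged 11.01 in OP replicate 6, 9.65 in OP replicate 2, 7.48 to 7.56 in the other OP cancers and 7.58 to 8.06 in LC, and their median of 0.79 was 0.19 without replicate 6. Tnni2, a fast troponin, was higher by 1.41 and Actn3 lower by 0.97. Macrophage genes were at 13.02, T and NK cell genes at 9.52 and MHC class II genes at 12.55 in that cancer, above the 10.51 to 11.45, 7.86 to 8.40 and 9.25 to 10.88 of the other OP cancers. Without that cancer the macrophage median went from 0.20 to -0.19, the T and NK cell median from 0.18 to -0.10 and the MHC class II median from -0.17 to -0.50. Fibroblast and matrix genes averaged 14.11 in it, 11.61 to 12.84 in the other OP cancers and 11.64 to 13.44 in LC, and their median went from -0.02 to -0.40 without it and to 0.39 without LC replicate 3. The part of these cells in the gene differences was not tested.

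**Figure D2:**
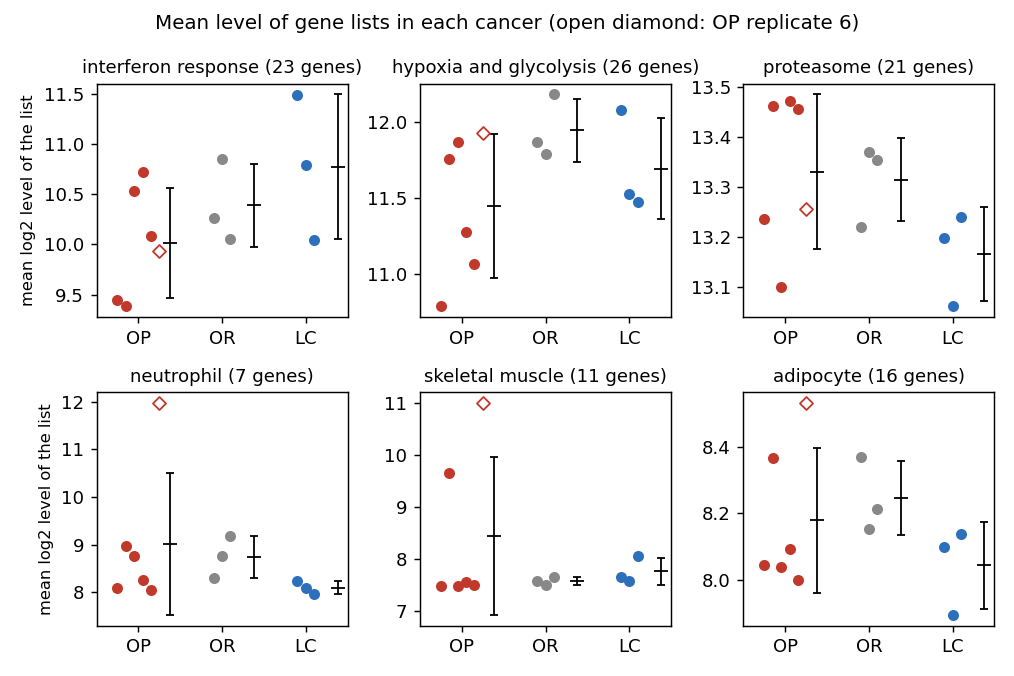
Mean normalized log2 level of 6 gene lists in each cancer of the OP (6), OR (3) and LC (3) groups, with the mean and SD of the group beside its points. OP replicate 6 (open diamond) is at 11.97 for neutrophil and 11.01 for skeletal muscle genes, far above the LC points, while the interferon, hypoxia and proteasome panels overlap.

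Without OP replicate 6, 185 genes (0.739%) passed the adjusted threshold, 177 higher (0.707%) and 8 lower (0.032%) in OP, and 48 of them had a symbol. This is 1 of 12 such omissions, and omitting any other cancer gave 0 calls, or 3 in the case of LC replicate 1. The genes named from this fit were chosen after their values were seen.

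Zcchc9, a zinc knuckle protein, had the smallest p in both fits. It was 10.38, 10.37 and 10.32 in LC, 11.32, 11.46, 11.38, 11.48 and 11.30 in OP replicates 1 to 5 and 10.78 in OP replicate 6, with 10.53, 10.68 and 10.65 in OR. The difference was 0.93 ± 0.14 (SE, adjusted p = 0.197) with it and 1.03 ± 0.07 (SE, adjusted p = 0.00146) without. Shoc2, the scaffold of the complex with Mras, was 9.34, 9.51 and 9.33 in LC, 10.18 to 10.46 in OP replicates 1 to 5 and 9.72 in replicate 6. It was higher by 0.95 ± 0.09 (SE, adjusted p = 0.00643) without that cancer. Ptpn11 was higher by 0.73 (adjusted p = 0.014) and the kinase gene Csnk1a1 by 1.11 (adjusted p = 0.0154).

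Further genes that rose in this fit were Eloa and Tcea1 of transcript elongation (both 1.04), the translation termination factor Gspt1 (0.86), the deubiquitinase Usp7 (0.89), Pdap1 (0.94), the mitochondrial channel Vdac1 (1.08) and Gkap1 (1.15). Slc38a4, Adipor2, Cox7a2 and Rpl11 also passed in it. Tdrd7 and Ubl7 fell by 0.58 and 0.89. The kinase gene Jak3, which signals for cytokine receptors of lymphocytes, fell by 0.89 and the lysosomal protease Lgmn by 0.97; both were high in OP replicate 6, at 11.14 and 13.31, where the other OP cancers were at 9.88 to 10.29 and 11.33 to 11.85. Klre1, a receptor of NK cells, was not well above background in any OP cancer and was at least 1.23-fold lower.

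**Figure D3:**
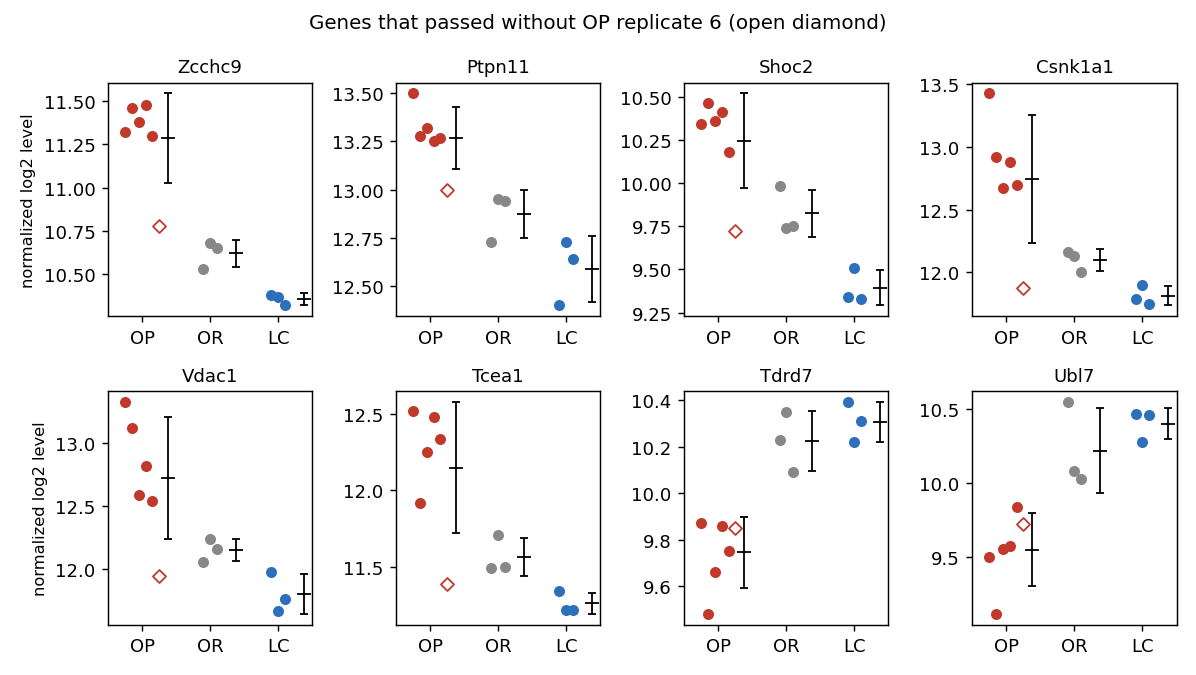
Normalized log2 level of 8 genes that passed the adjusted threshold once OP replicate 6 (open diamond) was left out, by cancer, with the mean and SD over all cancers of each group. In Zcchc9, Ptpn11, Shoc2, Csnk1a1, Vdac1 and Tcea1 the diamond lies below the other OP points, and in Tdrd7 and Ubl7 it lies among them.

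Other probes of the same genes did not show most of these differences. Of the 48 genes with a symbol, 20 had another tested probe, 25 probes in all, and 9 of these had the same sign as the brightest probe. The median difference was 0.85 for the brightest probes of those genes and -0.03 for the others. The second probes of Csnk1a1 and Ptpn11 were higher too, by 0.85 and 0.50, whereas both other probes of Vdac1 were lower, by 0.87 and 0.63, and 1 of the 2 other probes of Eloa was lower by 0.28. The cause of the disagreement between probes was not tested.

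The count also depended on the LC cancers. With OP replicate 6 and LC replicate 1, 2 or 3 left out together, 15, 25 and 8 genes passed. Leaving out another OP or OR cancer beside OP replicate 6 left between 68 and 194.

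**Figure D4:**
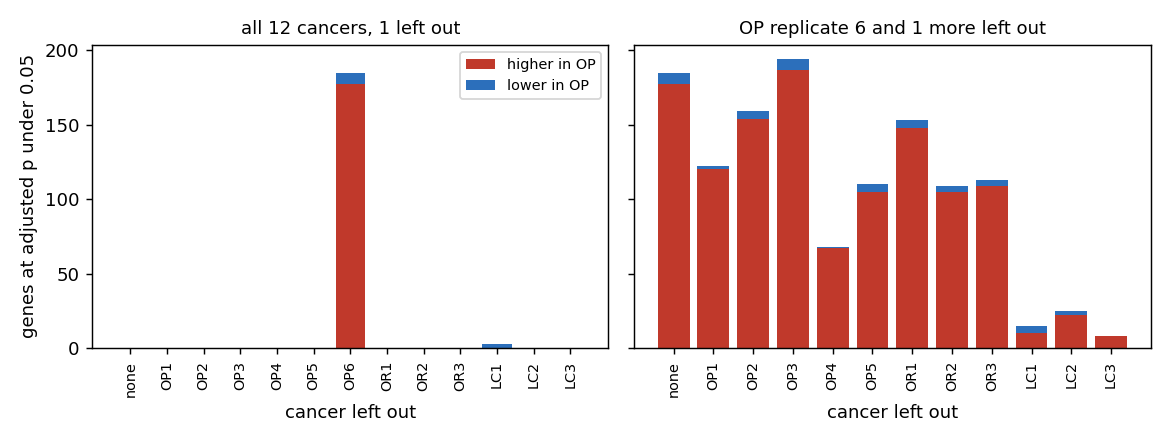
Number of genes at an adjusted p under 0.05, higher (red) and lower (blue) in OP, with each cancer left out in turn from all 12 (left) or beside OP replicate 6 (right). On the left, leaving out OP replicate 6 gives 185 genes and LC replicate 1 gives 3, the others 0; on the right, leaving out any LC cancer brings the count to 25 or fewer.

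Normal mammary tissue of the same groups gave 3 OP and 3 LC samples. The sample titles do not say whether any came from rats whose cancers were used. In that tissue, 0 of 36043 genes passed for OP against LC (8.84% at an unadjusted p under 0.05). For the difference between cancer and normal tissue in the OP and LC contrast, 0 passed (8.33% at an unadjusted p under 0.05, smallest limma adjusted p = 0.0661). Leaving out normal LC replicate 1 gave 711 genes for that difference and leaving out normal LC replicate 2 gave 64, against 0 to 6 for the other omissions. Of the genes with a symbol, the smallest p belonged to Or4f61d, an olfactory receptor gene that was too dim to be tested in the cancers and entered through normal tissue alone, with levels of 7.42 to 8.11 in OP and 6.44 to 6.85 in LC. Gtf2ird1, Magi3 and Reep2 were higher by 0.87, 1.12 and 0.72 in OP normal tissue and lower by 0.34, 0.29 and 0.79 in OP cancers. Zcchc9 was -0.05 apart in normal tissue, beside its 0.93 in cancers. The adjusted p-values of these 5 genes lay between 0.0922 and 0.108.

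Some of the cancer genes had normal tissue values in the same direction. Of the 177 genes higher without OP replicate 6, 152 were also higher in OP normal tissue, where 42.9% of all genes were. Their median there was 0.41 against -0.03 over all genes. A single probe, the brightest, stood for each gene here too, and in the cancers other probes of the called genes had a median of -0.03. The slides of the normal arrays are not given here, so whether slide followed group in normal tissue is not shown. For Ptpn11, normal LC replicate 1 was at 13.79, like the OP values of 13.58 to 13.92, and LC replicates 2 and 3 were at 11.75 and 11.83. The interferon list was lower in 22 of 23 members in OP normal tissue, by a median of 0.38, where 42.9% of all genes were higher, and 1 member had an unadjusted p under 0.05 (8.84% of all genes). Other lists stood the opposite way in normal tissue. Proteasome genes were lower in 20 of 21 members there, where 42.9% of all genes were higher and most were therefore lower. Their median was -0.20, and 6 of the 21 had an unadjusted p under 0.05 for the difference between tissues (8.33% of all genes). The EGF receptor list was lower in 3 of 10 members there, with a median of 0.40, and 5 of the 10 had such a p. Epithelial markers also differed between the normal samples. Epcam was 12.01 to 12.35 in OP and 9.14, 12.5 and 10.82 in LC normal tissue. Krt18 was 16.35 to 17.19 in OP and 14.71, 16.54 and 15.29 in LC. The part of epithelial content in the differences between tissues was not tested.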

How the data were processed

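RNA of 20 rat mammary samples had been hybridised to 1-colour Agilent arrays, and the authors deposited 1 scanner file per array with spot intensities. The file headers give Feature Extraction 9.5.1.1, the submitters' processing notes 10.7.3.1. The authors' deposited value table holds log2 values that follow the processed signal minus each array's 75th percentile, centred per probe; it was used as an alternative. The design text names the RMA method, so median spot intensities were corrected with normexp (offset 50), quantile-normalized over 20 arrays and put on the log2 scale (R 4.3.3, limma 3.58.1).

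Of 41012 probes, after 1639 control spots were left out, 28277 passed the scanner's test for signal over background on 50% or more of the arrays of either cancer group. Symbols came from RefSeq accessions through a RefSeq gene table: 10804 of 16276 probes with such an accession were named, and 30093 probes have no symbol. The brightest probe stood for a gene, which gave 25023 genes, 6702 with a symbol. A probe without a symbol took its transcript's accession as its gene, a choice settled after a first look at the data.

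The model held 12 cancers in 3 groups (9 residual degrees of freedom), with eBayes and Benjamini-Hochberg adjustment over all genes, and was tested on simulated data. The OP against LC fit of normal tissue held the normal arrays alone, and the fit of the difference between tissues held all 20 arrays. Where a group was below background on all its arrays, "at least N-fold" sets the brighter mean against the lowest signal well above background. Slides and scan days come from the file headers; figures were drawn with matplotlib 3.10.9.

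The genes and lists were chosen with earlier results of these data known. Named genes were those passing, or else the 10 in each direction with the smallest p at 2-fold or more; up to 4 members of each described list with the smallest p; the 5 largest non-overlapping differences in each direction among genes with a symbol; 8 genes of hormone and fat biology; the 5 smallest p of the tissue difference; and 2 transcripts without a symbol in each direction. Genes named from the fit without OP replicate 6 were chosen after their values were seen. Normalization, filter, probe choice, samples in the fit, array weights, slide, scan day, replicate block and single omissions were varied. For 1 item no result of its own is reported here.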

Additional observations from a re-analysis of the deposited data

Results flagged for a closer look

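Of 133 genes, list means and array measures checked over the 6 OP cancers, 18 had 1 cancer whose gap to its nearest neighbour, as a fraction of the group's range, exceeded Dixon's limit of 0.625; chance gives about 1 in 20 for unrelated groups, but these measures come from the same 6 cancers and move together, so that rate is no comparison here. In 13 of them OP replicate 6 was the cancer apart; Zcchc9, Gkap1, Jak3 and Lgmn were named from the fit without that cancer, so its distance in them follows in part from the choice. It was the lowest for Magi3 (0.730), Zcchc9 (0.734) and Gkap1 (0.765). It was the highest for the neutrophil genes Il1r2 (0.768), S100a9 (0.769) and S100a8 (0.792), for Jak3 (0.679) and for Lgmn (0.735). It was also the highest in the mean of the T and NK cell (0.677), neutrophil (0.768), obesity inflammation (0.669), chemokine (0.754) and S100 (0.820) lists.

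OP replicate 1 was the lowest for Tgfa (0.924). OP replicate 3 was the lowest in the mean of the cholesterol synthesis (0.663) and DNA repair (0.807) lists, and OP replicate 2 in that of the Wnt list (0.760). OP replicate 2 had the highest share of probes well above background (0.663).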

How the results depend on the processing

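Of the 85 genes named, 9 changed sign under some alternative. For Csn2 the difference was 0.0624 on the processed signal, 0.14 with normexp and the 75th percentile, 0.0496 in the authors' table, 1.76 with array weights, 2.35 within scan day 1 and between -2.71 and 1.72 when 1 cancer was left out. Normexp with the 75th percentile, which moved the median of all genes to -0.14, gave -0.27 for Adipoq and 0.0469 for Sdha. The mean of a gene's probes gave -0.13 for Vdac1. With the slide as a block, and in the pair on slide 1, values were -1.50 for Ceacam4, -0.82 for Des, 0.22 for Esr1, 0.53 for Pgr (-0.59 to -0.19 when 1 cancer was left out) and 1.47 for Igf1. Ceacam4 was -0.84 within scan day 2. Igf1 was 0.0464 with slide as a random block, 1.19 within scan day 2 and between -0.87 and 0.28 when 1 cancer, or OP replicate 6 and 1 more, was left out.

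The replicate numbers were not taken to pair the samples (correlations of deviations of OP with LC of -0.25, -0.17 and -0.37). With 3 LC samples these correlations cannot show whether a pairing is absent. The OP and LC cancers numbered 1 did share slide 1 and scan day 2. The replicate block left 0 calls and turned Adipoq (-0.0108) and Igf1 (0.00663).

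Calls over all cancers were 3 higher with all 20 arrays, 289 higher and 33 lower with array weights and 2 lower within scan day 1. They ran from 0 to 177 higher and 0 to 8 lower when 1 cancer was left out. With slide as a fixed block (5 residual degrees of freedom), the OP and LC contrast is that of OP replicate 1 and LC replicate 1 alone, so no count is given. With each probe without a symbol as a gene, 0 passed. For the interferon list, the median was -1.98 with slide as a block or on slide 1, -0.11 within scan day 1 and -1.89 within scan day 2; for hypoxia, -1.33 with slide and -0.83 within scan day 2. The ER stress median was -0.0354 with normexp and the 75th percentile, -0.0246 with slide and -0.0235 within scan day 2; with that scaling the ribosomal median was 0.41 and the proteasome median 0.32. The ribosomal median was also 0.03 within scan day 1 and 0.07 to 0.23 over single omissions, and the proteasome median 0.00932 with slide and 0.06 to 0.19 over single omissions. Single omissions gave 0.69 to 2.35 for Penk and -0.47 to -0.19 for Ctnna1. The share well above background differed by -5.19 percentage points without OP replicate 2 and by -5.19 to -1.07 over all single omissions. The tissue difference gave 58 genes with slide as a block and 0 to 711 when 1 sample was left out. The causes were not tested.

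Alternatives combined with the omission of OP replicate 6 were chosen after seeing the data. Higher and lower calls were 158 and 9 on the processed signal, 128 and 5 with the mean of probes, 50 and 2 with OP and LC alone, 253 and 11 with scan day as a block, 163 and 5 with slide as a random block, 227 and 6 in the authors' table, and 203 and 9 with each probe as a gene. With 1 more cancer left out they ran from 8 to 187 and from 0 to 7. In these fits Csn2 was 0.83 on the processed signal, 0.58 with the mean of probes, with OP and LC alone and with each probe as a gene, 0.42 with scan day, 0.82 in the authors' table, and -1.95 to 2.48 with 1 more cancer left out. Sdha was 0.0111 on the processed signal, Vdac1 -0.14 with the mean of probes and Pgr -0.39 to 0.0244 with 1 more cancer left out (highest without LC replicate 3). The ribosomal median was 0.39 on the processed signal and 0.37 in the authors' table, and the ER stress median -0.28 without OP replicate 2 and -0.10 without LC replicate 3.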
